A study of Mus musculus with 9 samples.

Results

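The genes described here are the 10 core and accessory subunits of Polycomb repressive complex 2 (PRC2) in mouse testis: Ezh2, Ezh1, Eed, Suz12, Jarid2, Mtf2, Phf1, Phf19, Rbbp4 and Rbbp7. They were taken by symbol from a count table of 56691 genes, and all 10 were among the 17251 genes with enough counts to be tested. The 9 libraries are poly(A) RNA of testis at postnatal day 7 (P7): 3 are labelled as lacking both Gm1142 and Gm4779 (double knockout), 3 are labelled Gm1142 knockout (called KO-labelled here) and 3 are wild type (WT). Strain, litter and pooling of animals were not stated in the labels. Ezh2 was selected on its low counts in the KO-labelled libraries, so its values there are given as a description with no test. The other 9 were listed for their known function, with earlier results of these data known. The question is whether those 9 follow Ezh2.

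PRC2 methylates a lysine of histone H3 (H3K27) and so keeps developmental genes silent. EZH2 and its relative EZH1 carry the catalytic SET domain, EED and SUZ12 are needed for catalysis, and RBBP4 or RBBP7 binds histones. The Polycomb-like proteins PHF1, MTF2 and PHF19 guide one form of the complex to CpG-rich DNA, and JARID2 belongs to another form. EZH2 is the form usual in dividing cells and EZH1 in resting ones, and in the mouse testis both act in germ cells, while the P7 testis also holds dividing Sertoli cells.

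Sequence before the RefSeq gene start is shown for both methyltransferase genes and for Suz12, since these are the catalytic pair and a core partner whose levels are compared next. The stretches come from the RefSeq promoter table on GRCm38.p6, are cut to the longest run outside protein-coding exons within 250 bases before the RefSeq gene start, and read 5′ to 3′ along the gene. The Ezh1 and Suz12 stretches also end at the gene start of the GENCODE annotation. GENCODE starts Ezh2 further upstream, at 47595341, so the Ezh2 stretch lies inside the gene as GENCODE draws it, outside its exons. Capitals mark CCAAT (the letters bound by NF-Y), GGGCGG (GC box, bound by Sp1) or TTTCCCGC (an E2F form), on either strand.
Ezh2, minus strand, chr6:47595059-47595183: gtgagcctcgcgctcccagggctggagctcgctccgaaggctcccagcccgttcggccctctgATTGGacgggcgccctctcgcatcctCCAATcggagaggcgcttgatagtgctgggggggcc
Ezh1, minus strand, chr11:101226464-101226713: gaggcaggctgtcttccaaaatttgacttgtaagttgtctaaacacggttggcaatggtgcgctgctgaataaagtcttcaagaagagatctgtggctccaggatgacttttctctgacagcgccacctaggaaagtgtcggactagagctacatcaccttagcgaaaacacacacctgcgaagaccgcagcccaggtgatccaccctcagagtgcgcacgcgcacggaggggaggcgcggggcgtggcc
Suz12, plus strand, chr11:79992856-79993105: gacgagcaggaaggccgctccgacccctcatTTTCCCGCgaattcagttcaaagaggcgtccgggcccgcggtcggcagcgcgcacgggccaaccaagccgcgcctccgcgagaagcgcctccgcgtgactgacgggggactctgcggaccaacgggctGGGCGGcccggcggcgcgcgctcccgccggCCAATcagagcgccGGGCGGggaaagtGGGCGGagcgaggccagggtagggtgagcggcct
The full 250-base window of Ezh2 held CCAAT at 3 places, of which the printed stretch shows 2, and CCAAT is present in 33.8% of 32851 such windows. The window of Ezh1 held none of these letters nor TTTGGCGC, a further E2F form. That of Suz12 held GGGCGG at 3 places, which 32.7% of windows contain, and TTTCCCGC once, which 0.895% contain. Phf19 was the other member with TTTCCCGC, and no member had TTTGGCGC (0.417% of windows), with the first listed window taken for Jarid2 and Mtf2, which have 2 each. Hits overlapped each other in the window of Phf19 (2 pairs) and in that of no other member. A match describes letters only.

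The libraries held 4370124 to 8359594 gene counts in the double knockout, 4597447 to 5243756 in the KO-labelled group and 4514237 to 5091624 in WT. Gm1142, which the table holds under the symbol 8030474K03Rik, had 0 counts in the 3 double-knockout libraries (a floor of 3 counts over the group is 0.162 CPM), 46 to 65 in the KO-labelled libraries and 41 to 56 in WT, so the counts of Gm1142 in the KO-labelled libraries were not below those of WT. Gm4779 had 0 counts in the double knockout, 59 to 88 in the KO-labelled libraries and 42 to 53 in WT. The KO-labelled libraries stood apart from the other 6, with scores of 50.3 to 73.5 on the first principal component, against -37.9 to -24.7 in the double knockout and -34 to -27.9 in WT. Mitochondrially encoded genes took 27.1% to 32.9% of counts in the double knockout, 32.5% to 38.9% in the KO-labelled group and 29.4% to 32.7% in WT. Summed germ-cell markers were at 637 to 796 CPM in the double knockout, 349 to 446 CPM in the KO-labelled group and 407 to 489 CPM in WT, so germ-cell markers were detected in all groups. Sertoli markers summed to 1010 to 1130 CPM in the double knockout, 1110 to 1200 CPM in the KO-labelled group and 1110 to 1170 CPM in WT. Nothing states that replicates are separate animals, so p-values measure the spread between these samples only.

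Ezh2 was lower in the KO-labelled libraries at 25.4% of its WT level, and none of its partners had a fold change of that size. Ezh2 was chosen for this drop, and only 0.765% of all 17251 tested genes fell at least as far. Smaller changes of the partners are thus what most genes would show. Ezh2 had 42.5, 39.1 and 52.2 CPM (read counts scaled to a common library size with TMM factors) in the KO-labelled libraries, against 175, 174 and 180 CPM in WT. All KO-labelled values lay far below all WT values, and WT varied little. The means were 44.6 ± 6.78 CPM in the KO-labelled libraries and 176 ± 3.46 CPM in WT (SD, n = 3 each), a log2 fold change of -1.98 (SE 0.13), which is the contrast that chose the gene. In whole testis, fewer cells that express a gene and less RNA per cell cannot be told apart.

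Among the other 9 members, 2 rose, 1 fell and 6 did not pass in the KO-labelled libraries against WT (edgeR quasi-likelihood test, adjusted over all genes). Over all 17251 genes, 18.5% were called in this comparison, 10.2% higher and 8.38% lower, so calls were frequent among genes at large. The median log2 fold change of the 9 was 0.08, with -0.01 over all genes, and their range was -0.49 to 0.72.

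Ezh1, the other methyltransferase, moved the same way as Ezh2 by a smaller amount. It had 59.0, 39.1 and 49.6 CPM in the KO-labelled libraries, against 80.0, 59.5 and 68.5 CPM in WT. The groups do not overlap, but the highest KO-labelled value and the lowest WT value nearly meet. Ezh1 fell by 0.49 in log2 units, with an SE of 0.16 and an adjusted p of 0.0367 in edgeR. The call was lost without KO-labelled replicate 2 (edgeR adjusted p = 0.15) or 3 (0.0933) and without WT 1 (0.199) or 3 (0.0831).

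Eed and Mtf2 moved opposite to Ezh2. Eed, which encodes the subunit that reads the methyl mark and activates the enzyme, had 124, 148 and 128 CPM in the KO-labelled libraries, against 109, 88.1 and 91.5 CPM in WT. It rose by 0.47 (SE 0.13, edgeR adjusted p = 0.0157), with the call lost without KO-labelled replicate 2 (0.0651) and without WT 2 (0.0905) or 3 (0.0731). Mtf2 had 109, 122 and 108 CPM in the KO-labelled libraries, against 70.1, 75.9 and 59.4 CPM in WT. These groups lie well apart, and the rise of 0.72 in log2 units (SE 0.13, edgeR adjusted p = 6.48e-04) was called whichever library was left out (adjusted p up to 0.00882).

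Suz12, the core subunit that holds the complex together, did not pass: it had 97.1, 68.8 and 92.3 CPM in the KO-labelled libraries, against 89.0, 70.4 and 73.4 CPM in WT. The groups overlap, and the 95% interval of its log2 fold change was -0.18 to 0.48. Jarid2 had 79.0, 69.5 and 79.3 CPM in the KO-labelled libraries, all above the 65.3, 51.8 and 59.7 CPM of WT, but its 0.37 (SE 0.15) missed the threshold (edgeR adjusted p = 0.0921). Among the Polycomb-like genes, Phf1 was at 0.02 (interval -0.39 to 0.42) and Phf19 at 0.02 (-0.83 to 0.87). Phf19 had only 9 to 34 counts in a library of these groups, so its interval is wide.

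The histone-binding subunits differed from each other. Rbbp4 had 292, 298 and 320 CPM in the KO-labelled libraries, against 308, 266 and 290 CPM in WT, which overlap (log2 fold change 0.08, interval -0.14 to 0.30). Rbbp7, its X-linked relative, had 163, 116 and 133 CPM in the KO-labelled libraries, all below the 180, 166 and 176 CPM of WT, with a log2 fold change of -0.34 (SE 0.14) that missed the threshold (edgeR adjusted p = 0.101) and passed without KO-labelled replicate 1 (0.0269). Of the 9 members, 3 were higher in every KO-labelled library than in any WT library (Eed, Jarid2, Mtf2) and 2 lower (Ezh1, Rbbp7). Over all genes, 35.9% did not overlap, 18.7% higher and 17.2% lower.

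**Figure D1:**
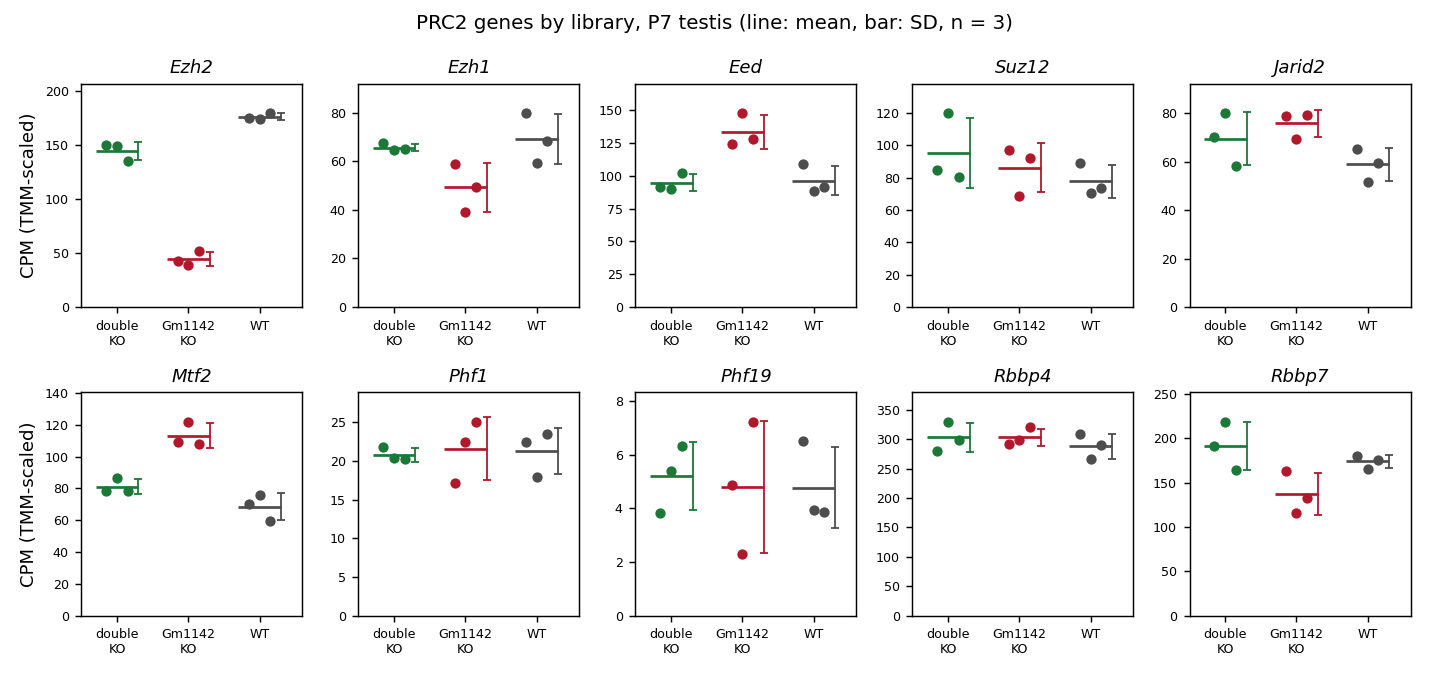
CPM of each PRC2 gene in the 9 libraries, by group (points), with the mean (line) and SD (bar, n = 3). Ezh2 in the KO-labelled libraries sits at 39.1 to 52.2 CPM, against 174 to 180 CPM in WT, while Eed and Mtf2 are highest in the KO-labelled group.

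In the double knockout no member passed against WT, and Ezh2 was only slightly lower. The edgeR test called 0 of 10, as did DESeq2 and limma-voom, and 1 had an unadjusted p under 0.05. Over all genes 0.0927% were called in this comparison, 0.0464% higher and 0.0464% lower, and 1544 of 17251 had an unadjusted p under 0.05. Ezh2 had 150, 149 and 135 CPM in the double knockout, against 175, 174 and 180 CPM in WT. The groups do not overlap, as for 15.9% of all genes, 8.28% higher and 7.57% lower, and the log2 fold change was -0.29 (SE 0.12, unadjusted p = 0.0332, edgeR adjusted p = 0.514). The WT libraries also served to choose Ezh2, so this value is not independent of the choice. Its interval was -0.53 to -0.04. The -1.98 of the KO-labelled libraries is the value that chose the gene, so setting the interval beside it tests no difference.

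The partners in the double knockout had log2 fold changes of -0.08 to 0.30 and adjusted p-values of 0.609 to 0.976 (edgeR). Ezh1 had 67.4, 64.5 and 65.0 CPM in the double knockout, inside the WT range. Eed had 91.5, 90.2 and 102 CPM, also inside it. Mtf2 had 78.5, 86.5 and 78.4 CPM in the double knockout, all above the 59.4 to 75.9 CPM of WT, at 0.25 (SE 0.13, edgeR adjusted p = 0.609). Suz12 was at 0.30 and Jarid2 at 0.25, and both were highest in replicate 2, the deepest library, at 120 and 80.3 CPM.

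The difference between the knockout groups was tested directly. Double-knockout libraries had Ezh2 at 135 to 150 CPM, against 39.1 to 52.2 CPM in the KO-labelled libraries, a log2 fold change of 1.69 (SE 0.13) given without a test because the KO-labelled values chose the gene. Of the other 9 members, 1 rose, 2 fell and 6 did not pass, where 19.1% of all genes were called, 9.07% higher and 10.1% lower. Rbbp7 had 191, 219 and 164 CPM in the double knockout, against 163, 116 and 133 CPM in the KO-labelled libraries, and rose by 0.48 (SE 0.14, edgeR adjusted p = 0.0193), with the lowest double-knockout value just above the highest KO-labelled one. Without double-knockout replicate 1 or 2 its adjusted p was 0.0537 or 0.101, and without KO-labelled replicate 2 or 3 it was 0.085 or 0.0751. Eed fell by 0.49 (SE 0.13, edgeR adjusted p = 0.0116) and Mtf2 by 0.48 (SE 0.13, 0.0142), and both were called whichever library was left out. Ezh1 was at 0.41 (SE 0.16, edgeR adjusted p = 0.0788) and passed without KO-labelled replicate 1 (0.0271). Of these 9, Ezh1 and Rbbp7 lay higher in every double-knockout library and Eed and Mtf2 lower, where 33.4% of all genes did not overlap, 16.3% higher and 17.1% lower. The 2 comparisons with the KO-labelled group share its libraries, so these values are not a second observation of it.

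**Figure D2:**
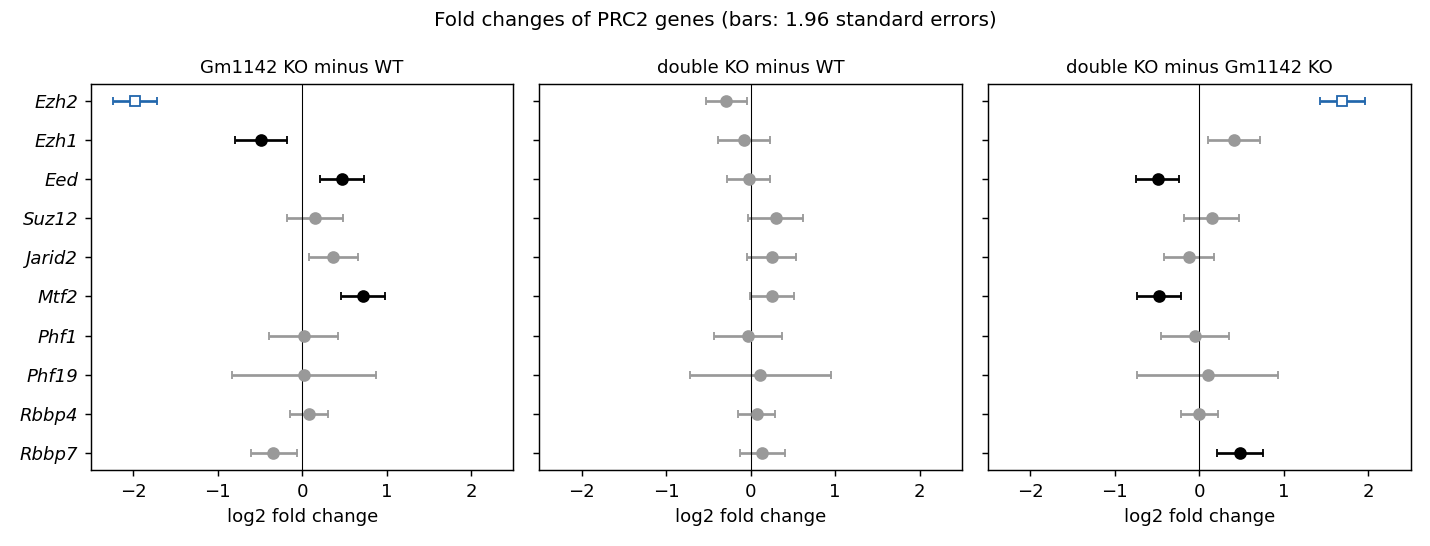
Log2 fold changes of the 10 PRC2 genes in 3 comparisons, with 95% intervals as bars: black passed the edgeR test, grey did not, and the open blue square is Ezh2 where its own values chose it. In the KO-labelled libraries against WT, Ezh2 lies at -1.98 and the other members between -0.49 and 0.72.

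Several members share bases with a gene on the opposite strand in the GENCODE annotation of GRCm38, and the labels do not state whether counting used strand. Mtf2 shares 395 exonic bases with Tmed5, which did not pass (log2 fold change -0.20 in the KO-labelled libraries against WT, edgeR adjusted p = 0.569). Eed shares 261 with E230029C05Rik, which did not pass (0.29, edgeR adjusted p = 0.44). Rbbp7 shares 174 with Txlng, which moved the same way and did pass (-0.72, SE 0.17, edgeR adjusted p = 0.00429). How far reads of one gene were counted in the other was not tested for any of the pairs given here. Phf1 shares 1370 of its 3486 exonic bases with Cuta, so its low level is uncertain. Rbbp4 shares 782 of 8744 with Sync, which had 8 to 35 counts in a library, and 796 with the non-coding gene Gm26722. Suz12 shares 178 of 4945 with the non-coding gene Gm26563, and Ezh2 174 of 6678 with the non-coding gene Gm26625. Gm26722, Gm26563 and Gm26625 are not analysed here. Apart from such overlapping genes, the only match to a member over at least 150 bases at 95% identity was Gm6382, a processed pseudogene of Rbbp7, which had 0 to 4 counts.

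The gene Ezh2 lies on chromosome 6 (GRCm38, 47530139 to 47595341, minus strand). Its nearest protein-coding neighbours were looked up after its values were seen. Cul1, a ubiquitin-ligase scaffold, was at 153 ± 17 CPM in the KO-labelled libraries and 168 ± 5.5 CPM in WT (a difference of -0.14 in log2 units, SE 0.12, edgeR adjusted p = 0.478). Pdia4, a disulfide isomerase, was at -0.28 (SE 0.15, edgeR adjusted p = 0.232) and Zfp786 at 0.09 (SE 0.49, 0.928). Zfp786 had only 3.22 CPM in the KO-labelled libraries and 3.03 CPM in WT, so its interval was wide (-0.87 to 1.04). Between the knockout groups, Pdia4 was at 0.37 (SE 0.15, edgeR adjusted p = 0.0953), Cul1 at 0.02 and Zfp786 at 0.23. Cntnap2 had too few counts to be tested. No tested neighbour was called in either comparison, and smaller changes of them are not excluded.

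Per length of exon, the order of the members changed with Ezh2. On the scale of CPM per kb, WT levels were 59.7 ± 2.46 for Rbbp7, 32.9 ± 2.37 for Rbbp4, 26.4 ± 0.518 for Ezh2, 25.1 ± 2.89 for Eed and 15.7 ± 2.02 for Suz12. Mtf2 followed at 12.0 ± 1.46, Ezh1 at 9.32 ± 1.38, Phf1 at 6.10 ± 0.842, Jarid2 at 6.07 ± 0.695 and Phf19 at 0.948 ± 0.298 (SD, n = 3). In this order Ezh2 and Eed overlapped, as did Mtf2 and Ezh1, and Phf1 and Jarid2. In the double knockout Ezh2 ranked 4 with 21.6 ± 1.25 CPM per kb, below Eed at 24.7 ± 1.74 with no overlap and overlapping Suz12 at 19.2 ± 4.36. In the KO-labelled libraries Ezh2 ranked 7 with 6.68 ± 1.02, overlapping Jarid2 at 7.82 ± 0.571 and Ezh1 at 6.62 ± 1.34, while Eed at 34.8 ± 3.45 overlapped Rbbp4 at 34.7 ± 1.64. Exon lengths are unions over annotated transcripts, so these levels assume that all exons are used.

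As a description of the catalytic pair, Ezh2 made up 71.3%, 72.0% and 69.8% of the summed per-length level of both genes in the double knockout, 44.5%, 52.7% and 53.9% in the KO-labelled libraries and 70.9%, 76.5% and 74.6% in WT. The summed level was 29.0 to 31.5 CPM per kb in the double knockout, 11.1 to 14.5 in the KO-labelled libraries and 34.0 to 36.9 in WT. Ezh1 was not higher where Ezh2 was low, and the sum was lowest in the KO-labelled libraries. Ezh2 was the larger part in WT and was chosen for its KO-labelled drop. The lower sum and share there thus follow largely from the choice. Per length, the ratio of Ezh2 to Eed was 0.88 ± 0.107 in the double knockout and 1.06 ± 0.121 in WT. In the KO-labelled libraries it was 0.194 ± 0.0416. The ratio of Ezh2 to Suz12 was 1.16 ± 0.208 in the double knockout and 1.7 ± 0.217 in WT. In the KO-labelled libraries it was 0.388 ± 0.0554, though Suz12 was not called. Both ratios contain the Ezh2 values that chose the gene, and its fall was larger than the rise of Eed.

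**Figure D3:**
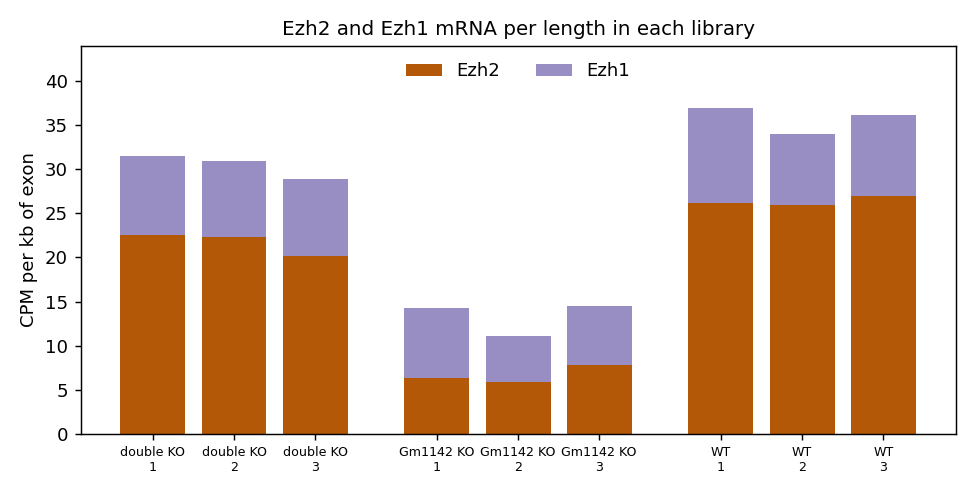
Stacked bars of Ezh2 and Ezh1 in CPM per kb of exon for each library. The summed bars reach 29.0 to 31.5 in the double knockout, 11.1 to 14.5 in the KO-labelled libraries and 34.0 to 36.9 in WT. Ezh2 was chosen for its low KO-labelled values, so the lower sum there follows largely from the choice.

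None of the 6 genes nearest to Ezh2 in profile was a PRC2 gene, where PRC2 members are few among the 11642 genes ranked. Likeness was the root mean square difference between log2 CPM profiles over the 9 libraries, each centred on its own mean. The 11642 genes ranked had a symbol and a mean of at least 5 CPM. Predicted genes (symbols of Gm plus digits, or ending in Rik) were left out. The nearest 6 were Chid1 (0.20), Rab4b (0.21), Fam204a (0.22), Zkscan7 (0.22), Ifi27 (0.22) and Zbtb26 (0.23), in log2 units. Rab4b encodes a small GTPase of endosomes, Ifi27 an interferon-induced protein, and Zkscan7 and Zbtb26 zinc-finger proteins. These 6 genes were picked on the same 9 libraries, so their low KO-labelled values follow from the choice and are a description. Chid1 was at 10.7 ± 3.44 CPM in the KO-labelled libraries and 42.3 ± 7.45 CPM in WT, and Ifi27 at 41.7 ± 4.7 CPM in the KO-labelled libraries and 130 ± 8.64 CPM in WT. Among the PRC2 members, Ezh1 ranked 1376th by likeness (0.68) and Rbbp7 1788th (0.71), Phf1, Rbbp4 and Suz12 ranked 5667th to 6137th, and Jarid2, Eed and Mtf2 8270th to 10488th. Phf19 was below the level for ranking. Profiles were centred but not scaled, so these ranks depend on the size of the drop that chose Ezh2. They are a description and test nothing about the members.

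**Figure D4:**
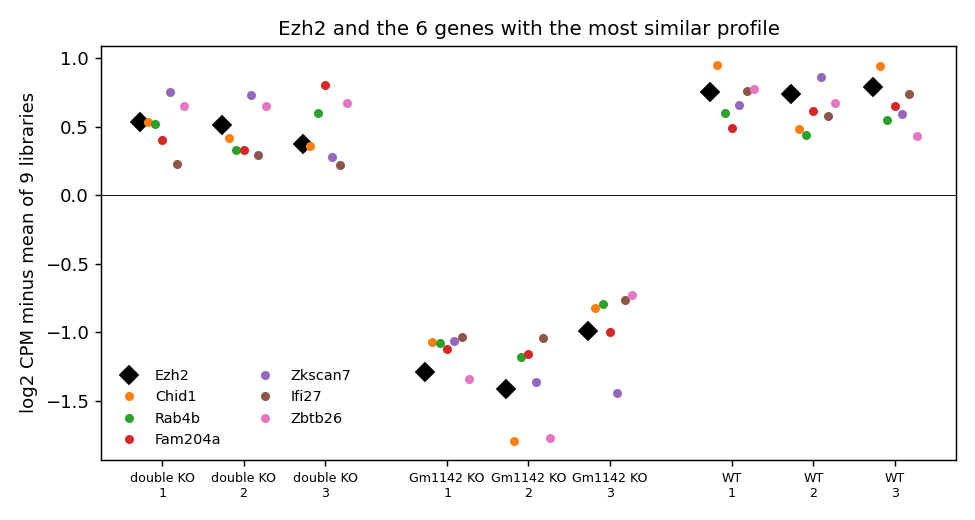
Log2 CPM minus the mean of the 9 libraries for Ezh2 (black diamonds) and the 6 genes with the smallest root mean square difference from it (0.20 to 0.23). All 7 genes lie below their mean in each KO-labelled library and above it in each of the other 6 libraries. The 6 were picked for this likeness, so the shared pattern follows from the choice.

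Other Polycomb genes moved in both directions in the KO-labelled libraries. Over all genes, edgeR called 18.5% against WT, 10.2% higher and 8.38% lower, and 5311 of 17251 had an unadjusted p under 0.05. No tested gene of the other PRC2 accessory proteins passed: of 6 listed, 5 were tested and 0 were called by edgeR, DESeq2 or limma-voom, with 0 at an unadjusted p under 0.05. Aebp2, a partner of the form with Jarid2, was at 0.18 (edgeR adjusted p = 0.489), and Ezhip, which inhibits EZH2, was at 1.57 CPM in the KO-labelled libraries and 0.94 CPM in WT (0.74, SE 0.67, edgeR adjusted p = 0.493). Of 27 genes of Polycomb repressive complex 1 (PRC1), which ubiquitinates histone H2A, 3 rose, 4 fell and 20 did not pass, with a median of -0.10, and 4 in all passed without WT 1. Ring1, one of its paired ubiquitin ligases, fell by 1.33 (SE 0.18, edgeR adjusted p = 2.22e-05), at 16.2 ± 1.84 CPM in the KO-labelled libraries and 40.7 ± 2.71 CPM in WT. Cbx8, which encodes a reader of the PRC2 mark, and Pcgf3 each fell by 0.96 (edgeR adjusted p = 4.49e-04 and 0.00435), and L3mbtl2 rose by 0.79 (0.00793).

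Of 9 genes for removal of the Polycomb marks, 2 rose and 1 fell, with a median of 0.00. As a share of all genes, 18.5% were called in this comparison, 10.2% higher and 8.38% lower. The H2A deubiquitinase genes Usp16 and Bap1 rose by 0.72 and 0.58 (edgeR adjusted p = 5.14e-04 and 0.00471). Mysm1, for another, fell by 0.41 (0.0376), a call that was lost with no filter (0.0876), with the replicate block (0.0582) and without any one of the 6 libraries compared (0.0563 to 0.123). Of 27 other histone lysine methyltransferase genes, 5 rose, 4 fell and 18 did not pass, with a median of -0.06. These 9 calls became 3 without WT 1, and 5 without KO-labelled replicate 3, WT 2 or WT 3. Smyd3 rose by 0.99 (edgeR adjusted p = 0.00182), and Setdb1, an H3K9 methyltransferase of transposon silencing, fell by 0.47 (0.0093, and 0.0662 without WT 3). Smyd2 rose by 0.58 (0.00796, and 0.0633 without WT 1 or 0.0506 without KO-labelled replicate 3) and Kmt2b by 0.51 (0.0121, and 0.0839 without WT 1).

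Among 22 tested genes of the other complexes that use RBBP4 or RBBP7, 5 rose, 2 fell and 15 did not pass. Their median was 0.08, and 10.2% of all genes were called higher and 8.38% lower. The 7 calls became 4 without WT 1 or WT 2. Both large subunits of the chromatin assembly factor rose, Chaf1b by 1.04 (SE 0.19, edgeR adjusted p = 5.72e-04) and Chaf1a by 0.88 (SE 0.16, 6.48e-04). Sin3b, a corepressor scaffold, fell by 0.61 (0.00132) and Smarca1, a remodelling ATPase, by 0.68 (0.00826, and 0.0599 without WT 1).

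Cell-cycle genes moved in both directions, where 18.5% of all genes were called, 10.2% higher and 8.38% lower. Of 26 proliferation genes, 5 rose, 2 fell and 19 did not pass, with a median of 0.08, and their summed level was 2000 to 2120 CPM in the KO-labelled libraries and 1700 to 1910 CPM in WT. The 7 calls became 3 without KO-labelled replicate 2 and 4 without KO-labelled replicate 3 or WT 1. Cdk1, the mitotic kinase, rose by 1.34 (SE 0.14, edgeR adjusted p = 1.53e-06) and the licensing factor gene Mcm7 by 0.51 (0.011, and 0.0738 without WT 1). Ccnb1 rose by 0.57 (0.00973, and 0.0682 without WT 3) and Cdt1 by 0.70 (0.0154, and 0.0882 without KO-labelled replicate 2 or 0.0936 without WT 2). Of 13 genes of the E2F and RB family, E2f6 rose by 0.52 (0.0119) and Tfdp1, the dimer partner of E2F factors, fell by 0.53 (0.0158). Leaving out 1 library ended the call of E2f6 in 3 cases (KO-labelled replicate 2, WT 1 and WT 3, edgeR adjusted p = 0.0535 to 0.0841) and that of Tfdp1 in 4 (the same libraries and KO-labelled replicate 3, 0.0518 to 0.087).

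Developmental genes known as PRC2 targets in mouse embryonic stem cells were mostly too low to test: 14 of 42 were tested. None passed in the KO-labelled libraries against WT by edgeR, DESeq2 or limma-voom, with 3 at an unadjusted p under 0.05 and a median of 0.16. Over all genes, edgeR called 18.5%, and 5311 of 17251 had an unadjusted p under 0.05. Gata6, a transcription factor gene of endoderm and gonadal soma, was at 50.2 ± 0.944 CPM in the KO-labelled libraries and 36.5 ± 2.76 CPM in WT (0.46, SE 0.16, edgeR adjusted p = 0.0542). It passed with the strict filter (0.0499), with the compared groups fitted alone (0.0333) and without double-knockout replicate 2 (0.0499) or 3 (0.0455). The endoderm gene Sox17 was at -1.09 (SE 0.44, edgeR adjusted p = 0.0892).

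Marker lists of testis cell types were read beside these counts in the KO-labelled libraries against WT. In this comparison 10.2% of all genes were called higher and 8.38% lower. Of 10 tested germ-cell markers 1 rose and 1 fell, of 9 Sertoli markers 1 rose and 2 fell, and of 5 Leydig markers 2 fell. Leydig markers summed to 174 to 267 CPM in the KO-labelled libraries and 279 to 502 CPM in WT. Of 6 peritubular myoid markers 1 fell, of 5 blood markers 1 rose, and none of 6 endothelial, 5 macrophage or 5 duct markers passed by edgeR. DESeq2 called 1 macrophage marker, limma-voom 0, and 1 macrophage and 0 endothelial or duct markers had an unadjusted p under 0.05. With 1 library left out, the counts called were 1 to 3 for germ-cell, 2 to 3 for Leydig, 0 to 1 for myoid, 0 to 1 for blood and 0 to 1 for macrophage markers. The myoid call was also lost with limma-voom, and with no filter 4 Leydig and 0 myoid markers were called. No list had a marker at 0 in every library of a group. The part of any of these lists in the values of the PRC2 genes was not tested.

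In the double knockout against WT, edgeR called none of the genes in any of these Polycomb, chromatin, cell-cycle and target lists. Over all genes, 1544 of 17251 had an unadjusted p under 0.05 in edgeR. Counts at an unadjusted p under 0.05 were 5 of 27 for PRC1, 2 of 27 for other methyltransferases, 2 of 26 for proliferation and 1 each for other PRC2 accessory proteins, erasers, RBBP complexes and targets, with 0 in the E2F list. DESeq2 called 1 PRC1 gene, Scml2 (0.66, DESeq2 adjusted p = 0.0103, edgeR 0.0802), a Polycomb gene of the germ line, and 1 target, Tbx3 (-1.01, edgeR adjusted p = 0.159, DESeq2 0.0359). With no filter both passed (edgeR adjusted p = 0.0116 and 0.00401), and Scml2 also without KO-labelled replicate 2 (0.0404). In this comparison, where edgeR called 0.0927% of all genes, 2 of 10 germ-cell markers rose, while 8 had an unadjusted p under 0.05. The count called was 5 with no filter, 3 without KO-labelled replicate 2, 1 without the double-knockout library of replicate 3, and 0 without that of replicate 2 or without WT 1 or WT 3. The part of germ cells in the value of Scml2 was not tested.

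Between the knockout groups, 7 PRC1 genes rose and 2 fell, with a median of 0.22 against 0.03 over all genes. In this comparison 19.1% of all genes were called, 9.07% higher and 10.1% lower. Ring1 was at 34.2 ± 0.814 CPM in the double knockout and 16.2 ± 1.84 CPM in the KO-labelled libraries (1.08, SE 0.17, edgeR adjusted p = 2.25e-04). Pcgf3 rose by 1.06 (0.00208) and Mga by 0.62 (0.00595), and E2f6 fell by 0.58 (0.00623). Of the targets, Tbx3 and Gata6 fell by 1.57 and 0.62 (edgeR adjusted p = 1.64e-04 and 0.0103). Other methyltransferase genes gave 7 higher and 3 lower, RBBP complexes 3 and 2, erasers 2 and 2, proliferation 2 and 5, and the E2F family 2 and 1. With 1 library left out, the calls in both directions together were 4 to 9 for other methyltransferases, 2 to 6 for RBBP complexes, 1 to 3 for erasers and 4 to 8 for proliferation. The lowest of these counts came without KO-labelled replicate 2 for methyltransferases, without KO-labelled replicate 3 for RBBP complexes, without double-knockout replicate 2 or KO-labelled replicate 1 or 2 for erasers, and without double-knockout replicate 2 or KO-labelled replicate 2 or 3 for proliferation.

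**Figure D5:**
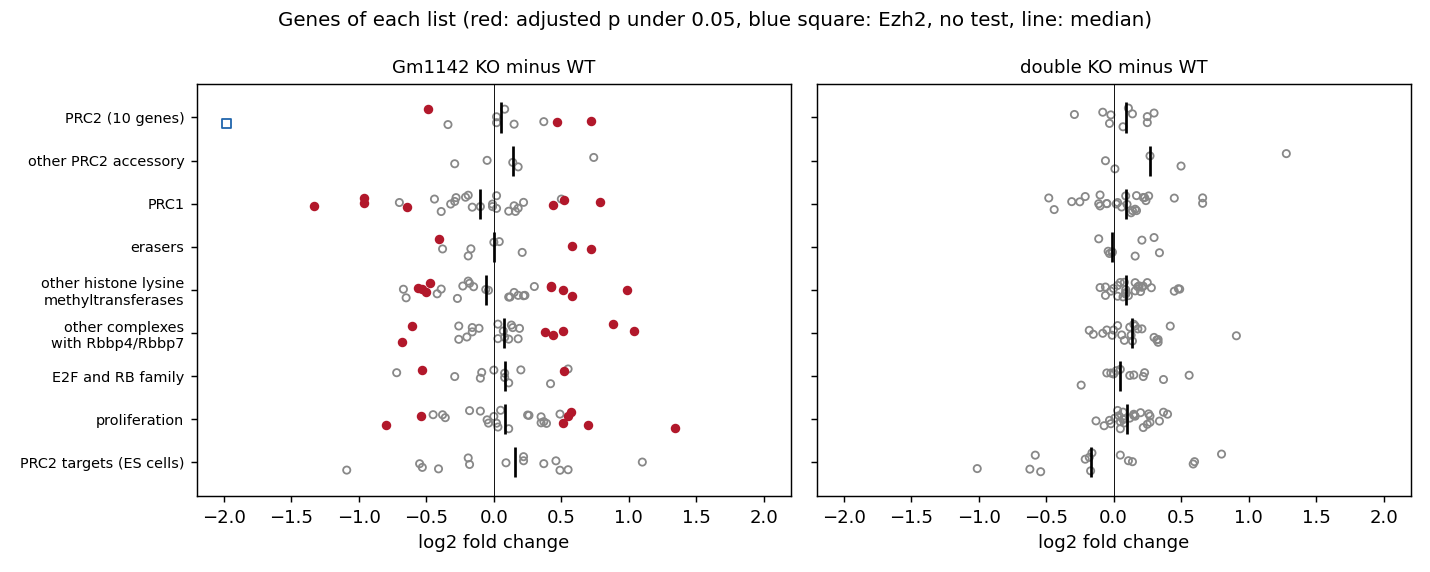
Log2 fold changes of each tested gene by list, in the KO-labelled libraries against WT (left) and the double knockout against WT (right), with red points past the edgeR test and a line at each median. On the left the list medians lie at -0.10 to 0.16, the other PRC2 accessory genes and the ES-cell targets hold no red point and the other lists hold red points on both sides of 0, and on the right none is red. Over all genes, 18.5% were called on the left and 0.0927% on the right.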

How the data were processed

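mRNA of P7 testis was captured on oligo(dT) beads. The deposited values are raw read counts per gene. Per the submitters' processing notes, the tools were cutadapt, Bowtie2, STAR and featureCounts and the build was mm39. No source used here gives the annotation release, strand setting or treatment of multiply mapped reads, which bears on overlapping genes and pseudogenes. Positions and lengths come from GRCm38 and are never mixed with mm39 positions.

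Of 56691 genes, 52073 were paired with a symbol. Genes passing the filter of edgeR 4.0.16 by group (minimum count 10, minimum total 15) were fitted in R 4.3.3 with TMM scaling and a quasi-likelihood model of the 9 libraries, 1 term per group and 6 residual degrees of freedom. p-values were adjusted by Benjamini-Hochberg over all 17251 genes, and genes under 0.05 were called. SE is the log2 fold change over the square root of F, without sign. Log2 CPM used a pseudocount of 0.5. The test was checked on simulated data.

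The members and the 17 lists (239 entries, 238 matched, 1 of them by an older name) were chosen with earlier results of these data known. Named genes are all members and, per list, up to 4 called genes with the smallest adjusted p, or 2 where none was called; rule-named genes between the knockout groups are printed in part. DESeq2 1.42.0, limma-voom (limma 3.58.1), other scalings, filters and fits, and leaving out each library were alternatives. Same-numbered libraries had correlated deviations of -0.25 to 0.09, so numbers were not taken to pair samples. Replicates differed by more than sampling noise (chi-square per degree of freedom 3.81 to 11.2). Intervals are the log2 fold change plus or minus 1.96 SE. They are approximate and can exclude 0 where the p of the F-test is above 0.05. They cover the spread between libraries only.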

Additional observations from a re-analysis of the deposited data

How the results depend on the processing

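Over 17 alternatives, no alternative other than leaving out a library changed the call of a PRC2 member in any comparison; the replicate block (numbers do not pair samples here) left 3, 0 and 3 members called in the KO-labelled libraries against WT, the double knockout against WT and between the knockout groups, as in the fit without it. With 1 library left out, the counts of members other than Ezh2 called in the KO-labelled libraries against WT were 1 to 4 in all, 1 to 2 higher and 0 to 2 lower, and between the knockout groups 2 to 4 in all, 0 to 2 higher and 2 lower. Ezh2 kept log2 fold changes of -2.12 to -1.90 in the KO-labelled libraries against WT. Members near 0 changed sign, none of them called. Phf19 in the KO-labelled libraries against WT was at -0.05 with limma-voom and with the replicate block. With 1 library left out, it spanned -0.40 to 0.33 there, -0.05 to 0.41 in the double knockout against WT and -0.23 to 0.50 between the knockout groups. Phf1 spanned -0.12 to 0.17, -0.14 to 0.05 and -0.20 to 0.08 in the same comparisons. In the double knockout against WT, Ezh1 spanned -0.18 to 0.04, Eed -0.10 to 0.08 and Rbbp4 -0.01 to 0.13, and Suz12 spanned -0.05 to 0.24 between the knockout groups. The cause was not tested.

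The double knockout against WT had 16 called genes, but 110 with no filter, 68 with DESeq2, 28 with the compared groups alone, and 32, 45 and 9 without double-knockout 1, KO-labelled 2 and WT 1. Leaving out WT 1 took the 3196 of the KO-labelled comparison to 2037, and leaving out double-knockout 2 took the 3301 of the knockout groups to 2128. Between the knockout groups, the 4 called eraser genes became 1 with no filter or the compared groups alone and 2 with the replicate block, and the 5 of the RBBP complexes became 3 with the block or the groups alone. Of the called genes named from the lists, 11 of 21 in the KO-labelled libraries against WT and 14 of 24 in the double knockout against the KO-labelled libraries passed in every fit with 1 library left out. Depth limits Phf19 most.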
